A study of Mus musculus with 16 samples.

Results

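The genes of the cytosolic ribosomal proteins were followed in the left ventricle of mice given a high-fat, high-sucrose diet, the drug ertugliflozin, both or neither. Members were the protein-coding mouse genes whose symbol starts with Rpl or Rps and a digit, with Rplp0, Rplp1, Rplp2 and Rpsa; kinases of ribosomal protein S6 and pseudogenes were left out. Of 53764 genes in the deposited count table, 86 met this rule, and 84 of these had enough counts to be tested among 15841 genes. Rpl10l had 0 counts in all 16 libraries, and Rpl39l had 1 to 5 counts per library. The 86 include Rpl7l1 and Rps19bp1, which share the naming but are not known as subunits of the ribosome.

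All animals were male C57BL/6J mice that entered the study at 8 weeks of age and were kept on their diet for 4 months. The 4 groups were HFHS ertugliflozin (high-fat, high-sucrose diet with the drug mixed in at 0.5 mg/g), HFHS untreated (the same diet alone), CD ertugliflozin (low-fat control diet with the drug at the same dose) and CD untreated (control diet alone). Ertugliflozin inhibits SGLT2, the sodium-glucose cotransporter that recovers glucose from urine in the kidney. Each group had 4 libraries of poly(A)-selected RNA from ground ventricle, each described as coming from an animal, which the submitters took from a larger number per group as representative; p-values therefore measure the spread among chosen animals.

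A cytosolic ribosome is built from ribosomal RNA and 1 copy of most ribosomal proteins, and its large subunit (Rpl and Rplp genes) forms peptide bonds while its small subunit (Rps genes and Rpsa) reads the messenger RNA. In mammals the messenger RNAs of these proteins begin with a C followed by a run of pyrimidines, the terminal oligopyrimidine (TOP) tract, through which the kinase complex mTORC1 and the binding protein LARP1 control their translation together. Striated muscle also makes a muscle form of the protein L3, encoded by Rpl3l.

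Start sites of a few members are shown because the later results turn on these genes: the first 4 fell with diet, Rps27 is the gene whose protein Rps27rt copies, Rpl4 was among the most abundant large-subunit genes, and Rpl3l is the muscle form. Each line gives 12 bases before the annotated RefSeq start in GRCm38.p6 and 18 from it on, 5′ to 3′ on the gene's strand. Capitals mark the longest run of C and T within these 30 bases. Where runs tied in length, as in Rps27rt, the run nearest the start is marked.
Rpl18: gtctcgcaggccgCTCTTTCCCCgcccact
Rpl14: cgggCCCTCTCTCTTCTCgctgagcgccgc
Rpl7a: CCCTCTTCTTTCTTTCTCCagcagccgagc
Rps27rt: acttatcccttgCTTTCCggcggtgacgac
Rps27: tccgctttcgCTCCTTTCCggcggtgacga
Rpl4: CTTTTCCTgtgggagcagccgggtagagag
Rpl3l: tgttctagctctgtcatttgaCCTCTggtg
These windows lie at chr7:45718059-45718088 (plus strand), chr9:120571505-120571534 (plus), chr2:26910795-26910824 (plus), chr9:114982722-114982751 (minus), chr3:90213631-90213660 (minus), chr9:64173375-64173404 (plus) and chr17:24727814-24727843 (plus), in the order of the lines. The run was 10, 14, 19, 6, 9, 8 and 5 bases long in that order. Rpl3l, the muscle form, had the shortest run of the 7. The runs of Rpl3l and Rpl18 lay downstream of the annotated start, and that of Rpl4 lay wholly before it. Rps27rt and Rps27 share an unbroken stretch of 38 identical bases that begins at or next to their starts.

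Promoter windows of 300 bases (250 before the start to 50 after) were found for 66 members, 78 windows in all, among 32851 windows in the RefSeq table. A run of 6 or more C and T bases touching the 30 bases at the start was present in 59.0% of the members' windows and in 36.9% of all windows. The letters CTTTC on the gene's strand, from 50 bases before to 50 after the start, were present in 48.7% of the members' windows and in 12.8% of all windows. CCGGAAG on either strand, the core that ETS factors bind, was in 34.6% of the members' windows and in 8.86% of all. AAGATGG on either strand, the core of YY1 sites, was in 15.4% against 6.34%, and GGGCGG on either strand, the Sp1 core, in 60.3% against 35.7%. TATAAA, searched on the gene's strand from 50 bases before to 10 after the start, was in 2.56% of the members' windows and in 2.82% of all. CTTTC and the C and T runs can cover the same bases. These are letter matches and say nothing of binding.

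The deposited counts summed to 14637669 to 21452212 per library. The 86 members together took 0.494% to 0.611% of a library's counts. A further 298 rows of the table were annotated as ribosomal protein pseudogenes, and they held 36.7% to 38.9% as many counts as the members. How reads that fit several places were treated is not given in the sources used here, and many members share long stretches with other genes: of each member's 50-base stretches, between 1.35% and 100% (median 39.4%) occurred in no other annotated gene. Levels that are compared between members below are therefore levels of the deposited counts. Ventricular cardiomyocyte markers were high in all libraries (102708 to 125306 CPM summed over 12 markers; CPM are counts scaled to the TMM-adjusted size of the library). The sum of the 9 tested atrial markers was 2309 CPM in CD untreated replicate 1, which stood apart, and 845 to 1288 CPM in the other 15 libraries. Pam, with a mean of 863 CPM, was the largest part of this sum. Of the defining atrial markers Myl7 ranged over 0 to 234 CPM (at 0 in 2 libraries) and Sln over 0 to 65.6 CPM (at 0 in 5). CD untreated replicates 2 and 3 had the highest valve marker sums (295 and 241 CPM). Without CD untreated replicate 1 the members' median diet estimate was −0.093 untreated, with 0 members called, and −0.082 over both drug arms, with 4 called.

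Levels of the members spanned a wide range. Per kilobase of the transcript with the longest coding sequence, Rps15, a small-subunit protein, averaged 429 ± 23.8 CPM per kb over the 16 libraries (SD), and Rplp1, a protein of the stalk that recruits elongation factors, averaged 426 ± 26.6. Rpl8 (355 ± 23.3) and Rps14 (307 ± 30.6 CPM per kb) were also among the highest. By this transcript length, Rps15 and Rplp1 did not differ beyond their spread. At the low end, Rpl39l stood at 0.231 ± 0.137 CPM per kb, Rpl24 at 0.727 ± 0.186, Rpl23a at 1.08 ± 0.38, Rps23 at 1.91 ± 0.413 and Rps27 at 2.01 ± 0.606. All of these are core subunits except Rpl39l, a form known mainly from testis, and Rpl10l, at 0, is a testis form too. With the length of all annotated exons in place of the transcript, Rps15 was at 340 CPM per kb and Rplp1 stayed at 426. Rps14 was then at 76.5, Rpl8 at 222 and Rps27 at 0.663 CPM per kb. Places in the order therefore depend on the length used.

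Members with little sequence of their own were listed at lower levels. The median level was 11.6 CPM per kb for the 26 members with under 25% unique 50-base stretches, 29.0 for the 25 with 25% to 50%, 50.01 for the 21 with 50% to 75% and 62.9 for the 14 with 75% or more. Spearman's rho between level and uniqueness was 0.29 over the 86 members, which share the same 16 libraries, and is given as a description. Levels varied widely within the classes, from 0.727 to 259 CPM per kb in the lowest class and from 0 to 355 in the highest.

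**Figure D1:**
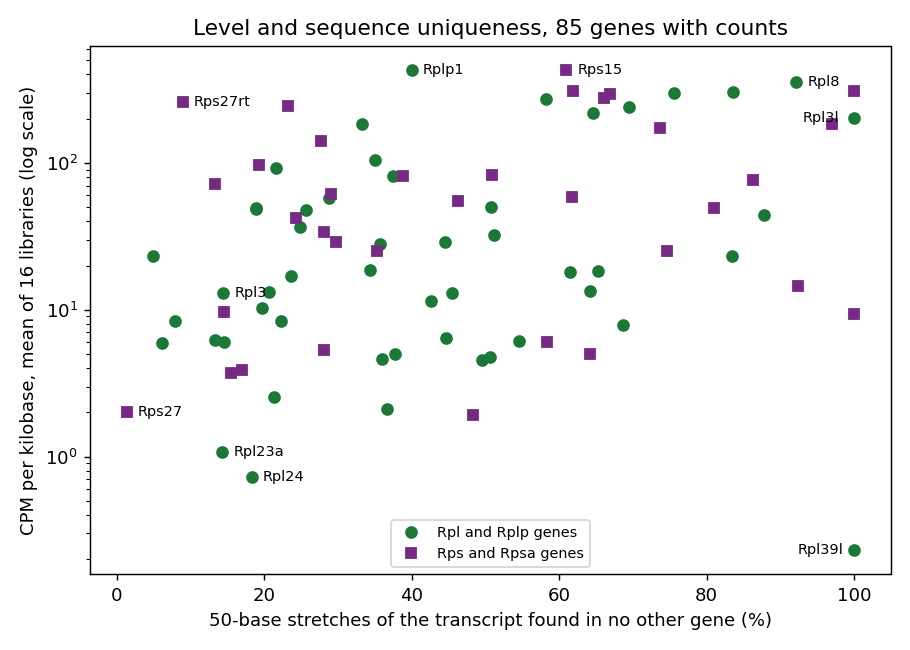
Level of each member (CPM per kilobase, mean of 16 libraries, log scale) against the percentage of its 50-base stretches found in no other annotated gene; circles are Rpl and Rplp genes, squares are Rps genes and Rpsa, and Rpl10l, at 0, is not drawn. Rps27rt (259) and Rps27 (2.01) lie far apart in level although both have under 10% of unique stretches, and Rpl3l (201) lies well above Rpl3 (12.98).

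Pairs of related members showed how counts were divided. Rps27, which encodes the small-subunit protein S27, and Rps27rt, an intronless copy on chromosome 9, have identical coding sequences (252 of 252 bases). Rps27 had a mean of 12.3 counts per library and Rps27rt 1728, which is 2.01 against 259 CPM per kb; only 1.35% of the 50-base stretches of Rps27 and 8.92% of those of Rps27rt are unique, and the counts of this pair cannot be assigned to 1 locus with certainty. Rps27l, a related protein, stood at 76.9 ± 7.11 CPM per kb. Its longest annotated coding sequence (315 bases) is 61.9% identical to that of Rps27 when gaps count as different. That alignment held 195 identical bases, 57 mismatches and 63 gap positions. Rpl22, a large-subunit protein, stood at 298 ± 18.7 CPM per kb and its paralog Rpl22l1 at 18.6 ± 2.27. Rpl36a stood at 6.02 ± 0.930 and Rpl36al at 2.12 ± 0.571 CPM per kb, with coding sequences 87.7% identical. Rpl39 stood at 23.2 ± 2.53 CPM per kb, far above Rpl39l. Rpl7, a large-subunit protein, stood at 185 ± 15.7 CPM per kb and Rpl7l1 at 44.4 ± 2.75, and Rps19, a small-subunit protein, at 25.2 ± 2.03 with its binding protein Rps19bp1 at 9.36 ± 1.05 (SD over 16 libraries).

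Rpl3l, the muscle form of L3, was listed at 201 ± 17.8 CPM per kb and Rpl3, the general form, at 12.98 ± 1.64. The coding sequences are 73.2% identical, and 100% of the 50-base stretches of Rpl3l but 14.4% of those of Rpl3 are unique, so the level of Rpl3 is the less certain of the pair. The log2 ratio of Rpl3l to Rpl3 counts was 4.11, 4.22, 3.62 and 3.94 in HFHS ertugliflozin, 3.43, 3.93, 4.11 and 4.36 in HFHS untreated, 4.13, 3.87, 3.89 and 4.41 in CD ertugliflozin and 4.12, 3.81, 3.78 and 4.03 in CD untreated. The groups overlapped, and the lowest value of all was that of HFHS untreated replicate 1. In an exact two-sided permutation test of 6 comparisons, the ratio on HFHS minus that on CD was 0.02 untreated (exact p = 0.971) and −0.10 with drug (exact p = 0.657). The ratio with drug minus that without was 0.02 on HFHS (exact p = 0.886) and 0.14 on CD (exact p = 0.400). Over both drug arms the diet difference was −0.04, and over both diets the drug difference was 0.08 (exact p = 0.776 and 0.568). All 6 had an adjusted p of 0.971; the smallest exact p possible was 0.0286 for 4 libraries against 4 and 4.08e-04 over both strata.

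The precision behind each comparison followed the level. The coefficient of variation between libraries of a group, from the mean of the 4 groups' variances, was lowest for Rpl8 (3.504%) and highest for Rpl23a (34.6%), with a median of 9.26% over the tested members. It was 3.87% for the stalk protein gene Rplp2, 4.74% for Rplp0, 6.24% for Rplp1, 15.7% for Rpl10 and 15.2% for Rps27a. Spearman's rho of this coefficient with the mean CPM was −0.85 over the 85 members with counts, which share all libraries. The members with few counts therefore carry the widest errors below.

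The first comparison asked how the diet changed these genes in animals without drug. Levels of most members were slightly lower on HFHS, and Rpl18, a large-subunit protein, fell. Rpl18 had 30.6, 30.2, 28.8 and 28.6 CPM in HFHS untreated, against 35.6, 35.9, 32.7 and 36.3 CPM in CD untreated. All 4 HFHS libraries were below all 4 CD libraries. The log2 fold change was −0.25 ± 0.06 (SE, edgeR adjusted p = 0.0354). This 1 member of 84 was lower and 0 were higher; of all genes 0.619% were called lower and 1.45% higher, and the members' share, 1.19%, is 1 gene. At an unadjusted p under 0.05, 8 members were lower and 0 higher, which is 9.52% of the members against 7.67% of all genes that were lower and 8.79% that were higher. Groups did not overlap, with HFHS lower, for 8 members, the same 9.52%, against 4.22% of all genes. The call of Rpl18 ended when any 1 of HFHS untreated replicates 2, 3 or 4 or CD untreated replicates 1, 2 or 4 was left out.

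The sign was shared more widely than the calls. Of 84 members 75 had a log2 fold change below 0, or 89.3%, where 50.4% of all genes did, and the median was −0.092 for the members (6.15% lower) and −0.0018 for all genes. The members share the same libraries, so sign counts here and in the comparisons below are descriptions and not 84 separate observations. Members of the large subunit had a median of −0.11 (45 of 49 below 0) and members of the small subunit one of −0.072 (28 of 33 below 0). The largest estimate was that of Rpl10, a large-subunit protein that joins late in assembly, with 7.25, 6.24, 5.05 and 4.54 CPM in HFHS untreated against 9.64, 7.09, 8.12 and 6.08 CPM in CD untreated (−0.42 ± 0.15, SE, edgeR adjusted p = 0.151). Its groups overlapped. The estimates of Rpl8 (−0.14 ± 0.05, edgeR adjusted p = 0.116), Rpl14 (−0.17 ± 0.06, edgeR adjusted p = 0.157) and Rpl7a (−0.13 ± 0.05, edgeR adjusted p = 0.220) did not pass. Rpl3l and Rpl3 had estimates of −0.11 ± 0.08 and −0.13 ± 0.12 and did not pass either.

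HFHS untreated replicate 1 stood apart from its group. The median of the 84 members' log2 deviations from each gene's mean over all libraries was 0.16 in it, the highest of the 16, against −0.13, −0.075 and −0.13 in replicates 2, 3 and 4. In that library 70 members were above their own mean, and in the other 3 there were 9, 14 and 9. It also had the highest endothelial marker sum (2922 CPM), the highest erythroid sum (490 CPM) and the lowest ventricular cardiomyocyte sum (102708 CPM) of all libraries; their part in the result was not tested. Without this library 11 members fell (Rpl8, Rpl10, Rpl14, Rpl18, Rpl32, Rps4x, Rps27l and Rps27rt among them; 1.92% of all genes were lower then), and the median log2 fold change was −0.17, with 79 of 84 below 0. Without any other single library of the comparison the median lay between −0.093 and −0.054.

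**Figure D2:**
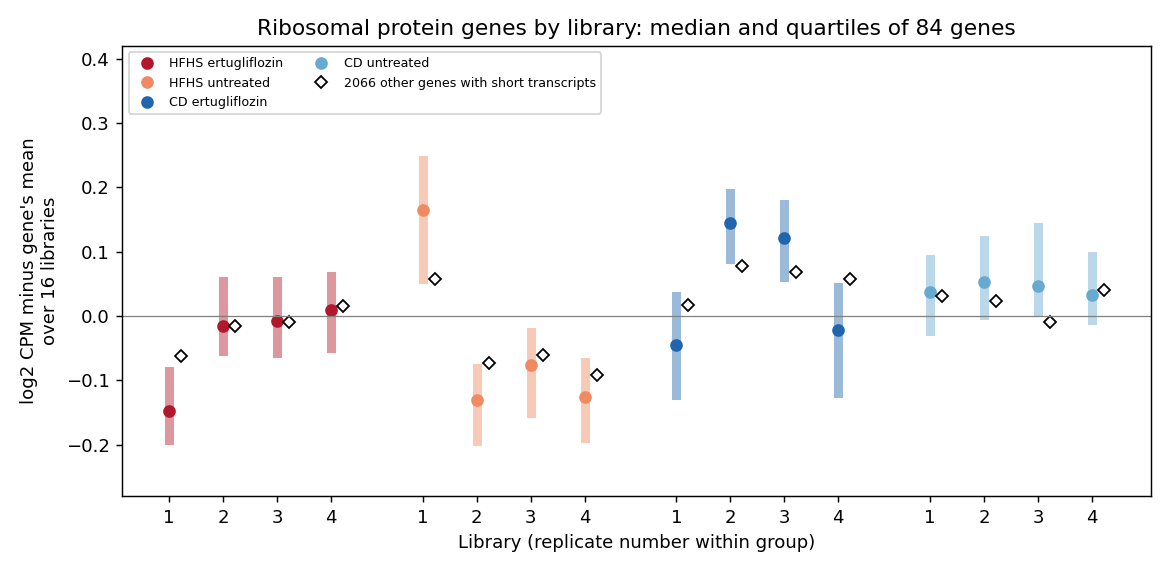
Median (dot) and quartiles (bar) of the log2 CPM of 84 members after subtraction of each gene's mean over 16 libraries, by group and library; open diamonds give the median of 2066 other genes with transcripts under 1000 bases. HFHS untreated replicate 1 is at 0.16 while the other 3 libraries of its group are between −0.13 and −0.075, and the 4 CD untreated libraries lie between 0.034 and 0.053.

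Genes with short transcripts moved in the same direction as the members in many libraries. The median deviation of 2066 other genes with transcripts under 1000 bases was −0.061, −0.015, −0.0090 and 0.015 in HFHS ertugliflozin, 0.058, −0.073, −0.060 and −0.092 in HFHS untreated, 0.017, 0.077, 0.069 and 0.058 in CD ertugliflozin, and 0.031, 0.023, −0.0092 and 0.040 in CD untreated. The members were at −0.15, −0.015, −0.0069 and 0.0092 in HFHS ertugliflozin, and at −0.045, 0.15, 0.12 and −0.022 in CD ertugliflozin. Both were highest, within their groups, in the same library of HFHS untreated, in replicate 4 of HFHS ertugliflozin and in replicate 2 of CD ertugliflozin. In CD untreated the short genes were highest in replicate 4 (0.040), where the members were lowest (0.034). A correction of each library for gene length and GC content brought the members' median diet estimate to −0.035 untreated, −0.034 with drug and −0.030 over both arms. In bulk tissue, fewer cells of a type and less RNA per cell cannot be told apart.

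The same question was then asked in animals given the drug. Rpl8, a large-subunit protein near the site of peptide bond formation, had 275, 292, 285 and 288 CPM in HFHS ertugliflozin, against 317, 342, 322 and 309 CPM in CD ertugliflozin. The groups did not overlap, and Rpl8 fell by 0.18 on the log2 scale (SE 0.05, edgeR adjusted p = 0.0342). It was the 1 member called, 1.19% of 84, against 1.53% of all genes called lower and 2.15% called higher. At an unadjusted p under 0.05, 11 members were lower, which is 13.1% of the members against 9.06% of all genes. At the same limit 1 member was higher, against 9.48% of all genes. The call of Rpl8 remained without CD ertugliflozin replicate 4 and ended without any other single library of the comparison. Rpl18 had 27.5, 31.5, 29.7 and 31.6 CPM in HFHS ertugliflozin, against 32.5, 36.6, 35.0 and 33.2 CPM in CD ertugliflozin. Its groups did not overlap, and the estimate of −0.19 ± 0.06 did not pass (SE, edgeR adjusted p = 0.0797).

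Of the 84 members 70 were below 0 in treated animals (83.3%, against 51.4% of all genes), with a median of −0.087 (5.86% lower) against −0.0054 for all genes. The median was −0.086 for 49 large-subunit and −0.088 for 33 small-subunit members. Rpl14, Rps27rt and Rps10 had estimates of −0.16 ± 0.06, −0.18 ± 0.07 and −0.23 ± 0.09 (SE) and did not pass (edgeR adjusted p = 0.155, 0.159 and 0.167). Rps10, a small-subunit protein, had 15.8, 15.9, 15.7 and 17.1 CPM in HFHS ertugliflozin and 18.3, 20.1, 19.4 and 17.6 CPM in CD ertugliflozin, without overlap. Groups did not overlap, with HFHS lower, for 6 members (7.14%), against 6.38% of all genes.

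The diet comparisons without and with drug share no library. Of 84 members 63 (75%) were below 0 in both and 2, Rpl23a and Rps27, above 0 in both, while 35.3% of all genes were below 0 in both. Taken singly, 89.3% of members were below 0 untreated and 83.3% with drug. A high share below 0 in both follows from these 2 shares, so the count does not show that the same members repeated. Rpl23a and Rps27 are 2 of the least counted members, with means of 10.7 and 12.3 counts per library.

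**Figure D3:**
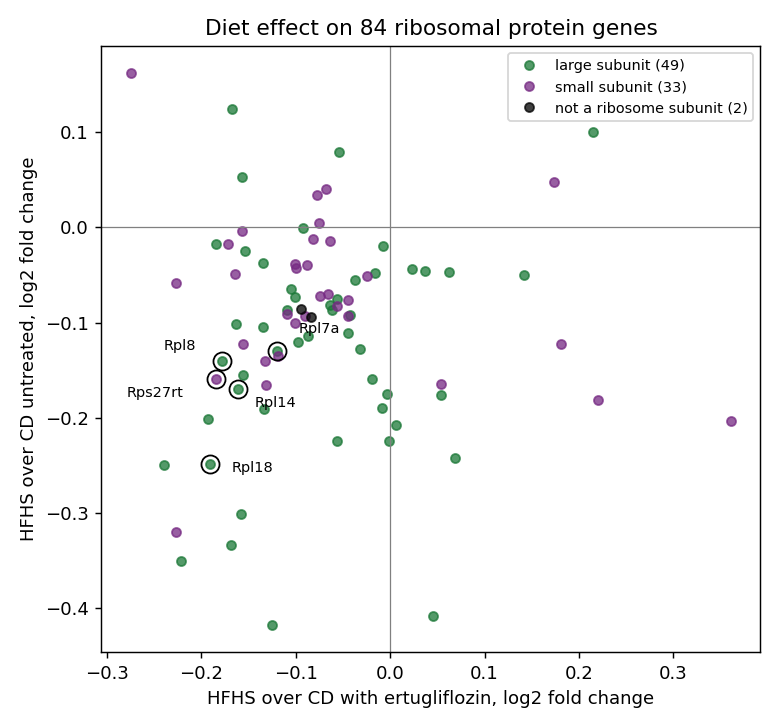
Log2 fold change of HFHS over CD in untreated animals (vertical) against that in animals given ertugliflozin (horizontal) for 84 members, coloured by subunit; rings mark the 5 members called over both drug arms. Of the 84 points 63 lie in the lower left part and 2 in the upper right, and Rpl18 is at −0.25 untreated and −0.19 with drug.

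Averaged over both drug arms, with 8 libraries on each diet, 5 members fell and 0 rose. They were Rpl18 (−0.22 ± 0.04, SE, edgeR adjusted p = 0.00231), Rpl8 (−0.16 ± 0.03, edgeR adjusted p = 0.00356), Rpl14 (−0.17 ± 0.04, edgeR adjusted p = 0.0172), Rps27rt (−0.17 ± 0.05, edgeR adjusted p = 0.0300) and Rpl7a (−0.12 ± 0.04, edgeR adjusted p = 0.0352). That is 5.95% of the members, against 5.01% of all genes called lower, so the share of members called was near that of all genes. At an unadjusted p under 0.05 the members' share was larger, 23 of 84 (27.4%), all lower, against 12.9% of all genes that were lower and 13.6% that were higher. The median was −0.086 (5.80% lower), against −0.0076 for all genes, and 76 of 84 were below 0 (90.5%, against 52.3% of all genes).

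Rpl8, at chr15:76904078-76906314 in GRCm38, had 299, 267, 291 and 286 CPM in HFHS untreated, against 314, 313, 320 and 312 CPM in CD untreated. All 8 HFHS libraries were thus below all 8 CD libraries. Its transcript is 92.1% unique, the highest share among the 5. Rpl18 (chr7:45715457-45720836), with 25.7% unique stretches, was also lower in all 8 HFHS libraries than in all 8 CD libraries, from the values above. The share of all genes separated in this way was not counted.

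Rpl14 (chr9:120571444-120574654), a large-subunit protein, had 43.5, 50.7, 48.8 and 48.2 CPM in HFHS ertugliflozin, 52.0, 44.7, 46.9 and 46.0 CPM in HFHS untreated, 51.4, 58.8, 51.6 and 51.7 CPM in CD ertugliflozin and 53.4, 52.3, 52.4 and 55.0 CPM in CD untreated. The groups did not overlap within either drug arm; HFHS untreated replicate 1 was the highest of the 8 HFHS libraries. Rps27rt (chr9:114982366-114982739) had 90.0, 91.2, 95.2 and 97.4 CPM in HFHS ertugliflozin, 105, 79.9, 90.2 and 81.7 CPM in HFHS untreated, 99.3, 112, 114 and 99.0 CPM in CD ertugliflozin and 98.9, 99.8, 98.9 and 100 CPM in CD untreated. Only HFHS untreated replicate 1 lay among the CD libraries. Rpl7a (chr2:26910764-26913318), a large-subunit protein, had 39.4, 43.1, 42.6 and 46.2 CPM in HFHS ertugliflozin, 43.6, 40.9, 42.8 and 41.4 CPM in HFHS untreated, 44.5, 47.8, 48.0 and 45.8 CPM in CD ertugliflozin and 46.6, 46.0, 47.7 and 44.2 CPM in CD untreated. Its diets overlapped through HFHS ertugliflozin replicate 4.

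**Figure D4:**
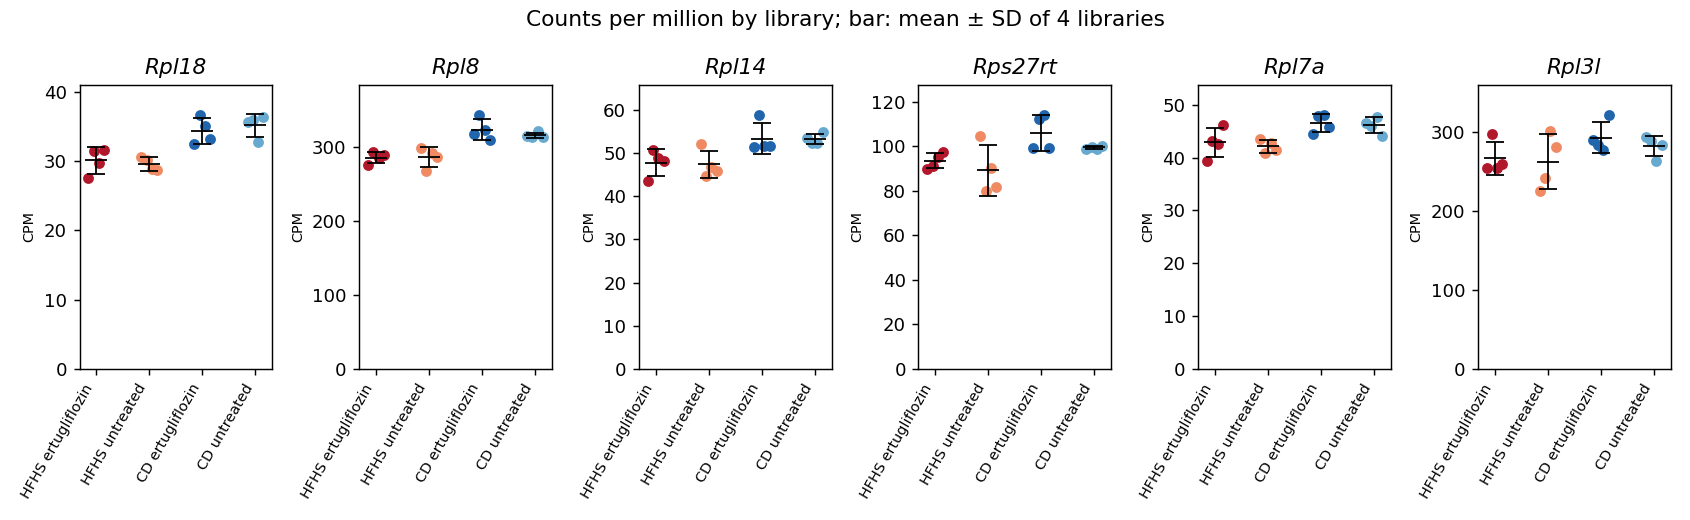
CPM by library in the 4 groups for the 5 members that fell with diet over both drug arms and for Rpl3l; points are libraries and bars are the mean ± SD of 4. In Rpl8 and Rpl18 every HFHS library lies below every CD library (Rpl8 at most 299 on HFHS and at least 309 on CD), while Rpl3l overlaps.

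Without HFHS untreated replicate 1, 24 members fell over both arms and the median was −0.12, with 7.22% of all genes called lower. Without each other single library 3 to 7 members fell, Rpl18, Rpl8 and Rpl14 among them each time. The calls of Rps27rt and Rpl7a were less stable. Of all 16 fits that left out 1 library, Rps27rt was called in 8 and Rpl7a in 5. With the correction for length and GC content 2 members, Rpl18 and Rpl8, were called. Among 33 members with at least 50% unique 50-base stretches the median was −0.085 and 32 were below 0, and among the other 51 it was −0.087 with 44 below 0. Endothelial marker sums were 2226 to 2922 CPM in HFHS and 1895 to 2244 CPM in CD libraries (10 markers). Ventricular cardiomyocyte sums were 102708 to 117922 and 110408 to 125306 CPM (12 markers), and macrophage sums 369 to 486 and 413 to 617 CPM (10 markers). Over both arms 6 cardiomyocyte markers (50%) were called lower and 0 higher, against 5.01% and 6.59% of all genes. Their median log2 fold change was −0.12, with 9 of 12 below 0. Of the endothelial markers 2 (20%) were called higher and 0 lower, and of the macrophage markers 1 (10%) lower and 0 higher. The part of these cell types in the result was not tested.

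Members with particular roles were also followed over both arms. The stalk proteins Rplp0, Rplp1 and Rplp2 stood at −0.09 ± 0.04, −0.05 ± 0.04 and −0.03 ± 0.04 (SE), and Rpsa, a small-subunit protein also named as a laminin receptor, at −0.09 ± 0.05. Rps6, whose phosphorylation is a common readout of mTORC1 signalling, stood at −0.08 ± 0.13, with means of 3.09 ± 0.304 CPM in HFHS ertugliflozin, 3.20 ± 0.388 in HFHS untreated, 3.45 ± 0.814 in CD ertugliflozin and 3.21 ± 0.739 in CD untreated (SD, n = 4 each). Rps27a, made as a fusion with ubiquitin, was at −0.27 ± 0.12, Rps4x at −0.13 ± 0.06, Rps27l at −0.15 ± 0.06 and Rpl22l1 at −0.20 ± 0.08, while Rpl22 was at −0.01 ± 0.05. None of these 10 passed (edgeR adjusted p between 0.0935 and 0.888). The 2 genes that are not ribosome subunits, Rpl7l1 and Rps19bp1, both stood at −0.09 and did not pass.

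Ertugliflozin was compared with no drug on each diet and over both. On HFHS 0 members were called in either direction by edgeR (0% of all genes), and 1 was lower and 1 higher at an unadjusted p under 0.05 (4.02% of all genes in either direction). The median of 84 members was 0.020 and that of all genes 5.08e-04. On CD 0 members were called (0.0189% of all genes), 1 was lower at an unadjusted p under 0.05 (6.17% of all genes in either direction), and the median was 0.010 (−0.0090 after the length and GC correction) against 0.0041 for all genes. Over both diets 0 members were called and 0 had an unadjusted p under 0.05 (0% and 5.57% of all genes), with a median of 0.014 (−0.0023 after that correction). DESeq2 and limma-voom called 0 members in each of these as well. The median standard error of a member's estimate was 0.093 on HFHS and 0.091 on CD, about the size of the median diet estimate.

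Rpl28 and Rpl27a, both of the large subunit, had the smallest p on HFHS. Rpl28 had 3.33, 4.10, 3.61 and 3.93 CPM in HFHS ertugliflozin, against 3.03, 3.20, 3.16 and 2.72 CPM in HFHS untreated, without overlap (0.30 ± 0.13, SE, edgeR adjusted p = 1.00). Rpl27a had 12.8, 14.3, 15.2 and 14.4 CPM in HFHS ertugliflozin, against 18.5, 17.5, 16.4 and 14.4 CPM in HFHS untreated, with overlap (−0.24 ± 0.10, SE, edgeR adjusted p = 1.00). Rpl5, Rps10 and Rps12 followed at 0.18, −0.13 and 0.21. On CD, Rps29, a zinc-binding small-subunit protein, had 1.46, 1.95, 1.61 and 1.62 CPM in CD ertugliflozin, against 2.09, 2.29, 2.34 and 1.95 CPM in CD untreated (−0.39 ± 0.17, SE, edgeR adjusted p = 0.779). The groups did not overlap but were close, with 1.952 CPM the highest in CD ertugliflozin and 1.954 CPM the lowest in CD untreated. Rpl15, Rpl39, Rpl9 and Rpl12 followed at 0.16, −0.18, −0.24 and −0.25, and none passed.

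The drug effect on HFHS minus that on CD was not called for any of the 84 members (0.0189% of all genes were called), and 1 member was lower and 1 higher at an unadjusted p under 0.05 (4.27% of all genes in either direction). These were Rpl27a at −0.29 ± 0.13 and Rps29 at 0.56 ± 0.24 (SE, edgeR adjusted p = 1.00 for both). Rpl15 (−0.21), Rpl29 (−0.17) and Rpl9 (0.31) followed. The median over members was 0.014. A difference between the drug effects on the 2 diets was thus not detected for any member at this number of animals.

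**Figure D5:**
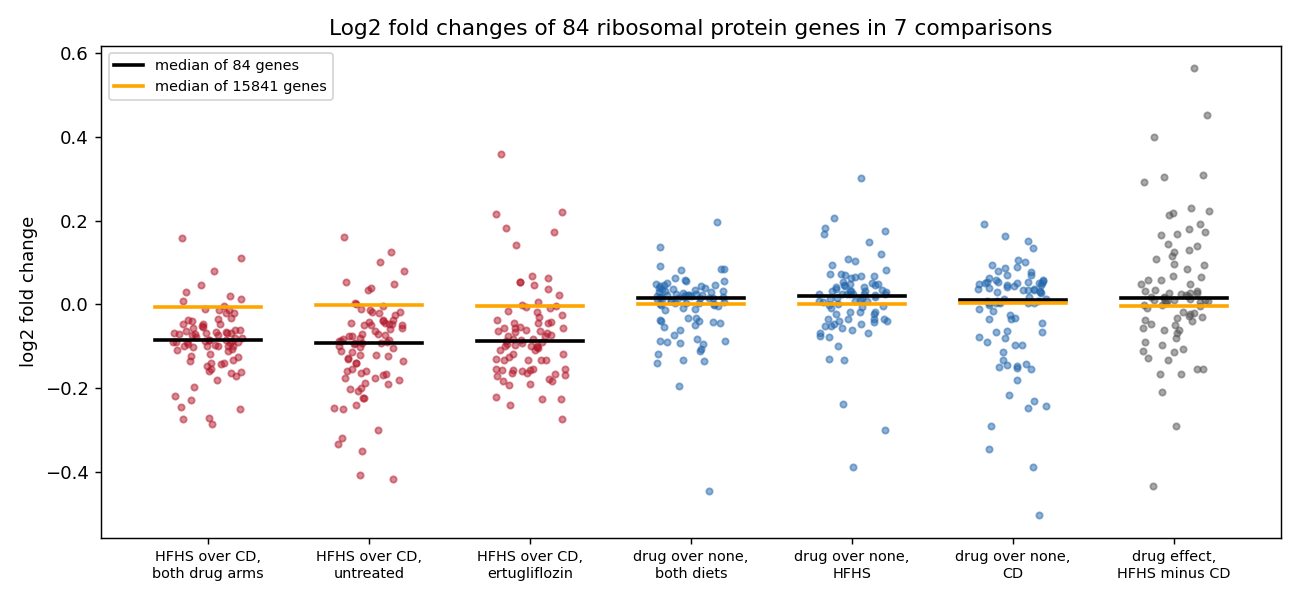
Log2 fold changes of 84 members in 7 comparisons; black bars are the members' median and orange bars that of all 15841 genes. In the 3 diet comparisons the members' medians are between −0.092 and −0.086, and in the 3 drug comparisons and the difference of drug effects they are between 0.010 and 0.020, before the length and GC correction that turns those on CD and over both diets below 0.

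Other genes of the translation machinery were counted over both drug arms for the diet, where 5.01% of all genes were called lower and 6.59% higher. Of 18 other messenger RNAs known to carry a TOP tract, 3 (16.7%) fell and 0 rose: Tpt1, the translationally controlled tumour protein, by 0.17 (SE 0.04), Hnrnpa1, an RNA-binding protein, by 0.16 (SE 0.04) and Eef1b2, an elongation factor subunit, by 0.11 (SE 0.04), with edgeR adjusted p of 0.0107, 0.0220 and 0.0474. The median was −0.054, with 14 of 18 below 0. Of 21 tested genes of RNA polymerase I, which makes ribosomal RNA, and its factors, 3 (14.3%) fell and 0 rose (median −0.073), all polymerase subunits: Polr1c (−0.21 ± 0.06), and Polr2e (−0.16 ± 0.04) and Polr2f (−0.12 ± 0.04), which RNA polymerase II also uses (SE, edgeR adjusted p at most 0.0460). Of 61 ribosome biogenesis genes 2 (3.28%, below the share of all genes) fell and 0 rose (median −0.041), Imp3 (−0.17 ± 0.05) and Nop56 (−0.16 ± 0.05), which act with small nucleolar RNAs, with edgeR adjusted p of 0.0233 and 0.0293.

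Of 37 translation initiation factors 3 (8.11%) rose and 6 (16.2%) fell (median −0.026). The scaffold protein Eif4g3 (0.20 ± 0.04) and the repressor Eif4ebp2 (0.14 ± 0.04) were among the 3, and Eif2s1 (−0.18 ± 0.04), Eif3k (−0.15 ± 0.03), Eif3i (−0.16 ± 0.04) and Eif3g (−0.16 ± 0.04), subunits of the factors eIF2 and eIF3, among the 6 (SE, edgeR adjusted p between 0.00482 and 0.0295). Of 14 elongation and termination factors 1 (7.14%) fell, Eef1b2, which the TOP list holds too. The mTORC1 pathway list moved both ways: of 31 genes 6 (19.4%) rose and 4 (12.9%) fell (median −0.031). Deptor, an inhibitor of the complex (0.32 ± 0.05), the kinase Mtor (0.22 ± 0.05), its partner Rptor (0.21 ± 0.04) and the TOP-binding Larp1 (0.18 ± 0.04) rose, while Rragb (−0.65 ± 0.12) and Lamtor4 (−0.21 ± 0.05), parts of the lysosomal amino acid sensor, fell (SE, edgeR adjusted p at most 0.00978).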

How the data were processed

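Left ventricular RNA was sequenced in 4 libraries per group. The authors deposited read counts per Ensembl gene as whole numbers, not normalized. Per the submitters' processing notes STAR 2.6.0c, featureCounts (Subread 1.6.2), FastQC 0.11.7 and DESeq2 1.22.1 were used with mm10. No source used here states the annotation, the strand setting or how multi-mapping reads were handled. A deposited table of regularized log2 values served as an alternative input. Symbols, coordinates and transcript lengths came from GENCODE M21 (GRCm38).

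Counts were fitted in R 4.3.3 with edgeR 4.0.16 (filterByExpr, TMM, 1 mean per group over 16 libraries, robust quasi-likelihood test), with Benjamini-Hochberg adjustment over 15841 genes at a threshold of 0.05. SEs were taken from the fold change and its F statistic. CPM values are scaled by TMM. Counts cover 14637669 to 21452212 reads per library. Chi-square values between libraries of a group were 3.19 to 15.7 times their degrees of freedom, so none was treated as a repeat of another. The tests were tested on simulated data.

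Alternatives were RLE and upper-quartile scaling, scaling without the members, no filter, a filter of 1 CPM, DESeq2 1.42.0, limma-voom and limma (3.58.1), the replicate number as a block, fits restricted to the groups under comparison, a correction for length and GC content (lowess, span 0.3) and leaving out each library. Medians over members with at least 50% unique stretches, principal-transcript lengths and leaving out CD untreated replicates 2 and 3 were added after the data were seen. The members, the gene lists and the rule for named genes (members called, the 5 smallest p where fewer passed, paralogs and special roles, the extremes of level, and called list genes) were chosen with earlier results of these data known. Uniqueness was counted over GENCODE transcripts in stretches of 50 bases; the read length is not given. Values of some members are not reported here.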

Additional observations from a re-analysis of the deposited data

Results flagged for a closer look

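In 124 sets of 4 libraries (the members' share of counts, their median deviation, the Rpl3l to Rpl3 ratio, and the CPM of members with values by library), 10 had a library whose gap to the next passed Dixon's 95% limit. For separate sets chance gives about 5%, and 8.06% were found. These sets share the same 16 libraries and are not separate trials, so the percentages are a description. Of the 10 flags 4 were in HFHS ertugliflozin replicate 1. HFHS ertugliflozin replicate 1 was lowest in the members' share of counts, at 0.494% against 0.539% to 0.547% in the other 3, in their median log2 deviation, at −0.15 against −0.015 to 0.0092, in Rpl41, at 99.8 CPM against 110 to 111, and in Rplp1, at 195 CPM against 218 to 223. HFHS untreated replicate 1 was highest in the members' share, at 0.611% against 0.498% to 0.513%.

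CD ertugliflozin replicate 2 was highest in Rpl14, at 58.8 CPM against 51.4 to 51.7. CD untreated replicate 2 was highest in Rpl41, at 119 CPM against 114 to 114. HFHS ertugliflozin replicate 2 was highest in Rpl3l, at 298 CPM against 255 to 260, and in Rplp2, at 46.4 CPM against 43.6 to 43.8. HFHS ertugliflozin replicate 4 was highest in Rps10, at 17.1 CPM against 15.7 to 15.9.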

How the results depend on the processing

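The members' median diet estimate stayed negative under every alternative run: −0.15 to −0.035 untreated, −0.10 to −0.034 with drug and −0.10 to −0.030 over both arms. The smallest sizes came from the correction for length and GC content; the regularized log2 values, which are shrunken by construction, gave −0.050, −0.045 and −0.047. Leaving out each library gave −0.17 to −0.054, −0.12 to −0.051 and −0.12 to −0.061. Counts of members called moved more. Untreated, against 1, there were 0 with no filter, in a fit of only the groups compared, after the length and GC correction and without CD untreated replicates 2 and 3, 2 with DESeq2 and 4 with limma-voom, and 0 to 11 on leaving out each library. With drug, against 1, there were 0 with no filter, with the replicate block and after the length and GC correction, and 0 to 1 on leaving out each library. Over both arms, against 5, there were 16 with limma-voom, 2 after the length and GC correction and 3 without CD untreated replicates 2 and 3, and 3 to 24 on leaving out each library. The cause of these differences was not tested. The drug comparisons and the difference of drug effects called 0 members under every alternative, and no called value changed sign. Values near 0 did change sign, by less than the spread between libraries (SD 0.0925) for the medians. The members' drug medians were −0.0090 on CD and −0.0023 over both diets after the length and GC correction. On leaving out each library they lay between −0.012 and 0.083 on HFHS, −0.027 and 0.046 on CD and −0.0059 and 0.046 over both diets, and the difference of drug effects between −0.019 and 0.080. The Rpl3l to Rpl3 differences, none of which passed, lay between −0.11 and 0.20 (diet, untreated), −0.18 and 0.016 (diet, with drug), −0.11 and 0.049 (diet, both arms), −0.16 and 0.15 (drug on HFHS) and −0.0077 and 0.15 (drug, both diets). Same-numbered libraries of different groups had a median correlation of deviations of 0.056 (−0.24 to 0.31), against −0.023 for other pairs, and they come from different animals. The number was therefore not used as a pairing in the main fit. These values cannot tell whether same-numbered libraries were handled together. Under the replicate block Rpl7a (edgeR adjusted p = 0.0531, both arms) and Rpl8 (edgeR adjusted p = 0.0578, with drug) no longer passed. Counts of 1 to 20 per library limit Rpl39l, Rpl23a, Rpl24 and Rps27.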
